A study of Mus musculus with 3 samples.

Results

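The genes Tgfbr2, Smad3, Smad7 and Ski encode a receptor, a signal carrier and a pair of inhibitors of the TGF-β pathway, and the binding sites of BACH2 and JunD around them were examined in mouse induced regulatory T cells. Every peak that overlapped a fixed window around each gene was taken, in the mm9 coordinates of the deposited lists. The windows were chr9:115950000-116130000 for Tgfbr2, chr9:63460000-63660000 for Smad3, chr18:75470000-75620000 for Smad7 and chr4:154490000-154640000 for Ski, 680 kb in total. They held 33 of the 9133 BACH2 peaks and 15 of the 5237 JunD peaks, or 48 of 14370 in all. The series has 3 libraries, 1 for each of BACH2, JunD and the input. All came from CD4+ T cells of the spleen, taken at 8 to 12 weeks of age from C57BL/6 mice of wild type genotype and cultured for 4 days on antibodies to CD3ε and CD28 with TGF-β. The labels call the cells Treg cells and do not say how many animals were pooled, and no library without TGF-β is among them. Peak lists do not measure expression, so the cell type could not be checked by marker genes.

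TGF-β signals through a pair of receptor kinases. The ligand binds TGFBR2, which phosphorylates its partner TGFBR1, and that kinase in turn phosphorylates SMAD2 and SMAD3, which enter the nucleus with SMAD4. SMAD7 blocks the receptor and is itself induced by the signal, while SKI is a co-repressor that binds SMAD proteins on DNA. In T cells this pathway is known for inducing Foxp3, the defining factor of regulatory T cells, and SMAD3 is known to bind a Foxp3 enhancer. BACH2 is a transcriptional repressor and JunD an AP-1 subunit, and both are basic leucine zipper proteins that recognise similar DNA elements.

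All 4 windows held peaks of both factors, with 12 BACH2 and 5 JunD peaks at Tgfbr2, 8 and 4 at Smad3, 10 and 2 at Smad7, and 3 and 4 at Ski. Taken over the windows, BACH2 peaks came at 4.85 per 100 kb against 0.347 over the chromosomes up to their last peak, and JunD peaks at 2.21 against 0.199. As a background, the chromosomes were laid out in tiles as long as each window. At least 12 BACH2 peaks fell in 0.198% of 180 kb tiles, and at least 5 JunD peaks in 1.21%, the counts at Tgfbr2. For Smad3 (200 kb), 1.14% of tiles had at least 8 BACH2 and 2.43% at least 4 JunD peaks. For Smad7 (150 kb), 0.234% of tiles had at least 10 BACH2 peaks, while 6.50% had at least 2 JunD peaks. Ski showed the reverse, since 6.57% of 150 kb tiles had at least 3 BACH2 peaks and 1.68% at least 4 JunD peaks. The BACH2 count at Tgfbr2, Smad3 and Smad7 thus stood further out among tiles than the JunD count, and at Ski the JunD count did. Tiles include stretches without genes, whereas the windows were placed on genes, so these shares compare the windows with chromosomal stretches in general. The genes were also chosen with earlier results of these data known. The densities and shares therefore describe the windows and do not test whether they are unusual.

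**Figure D1:**
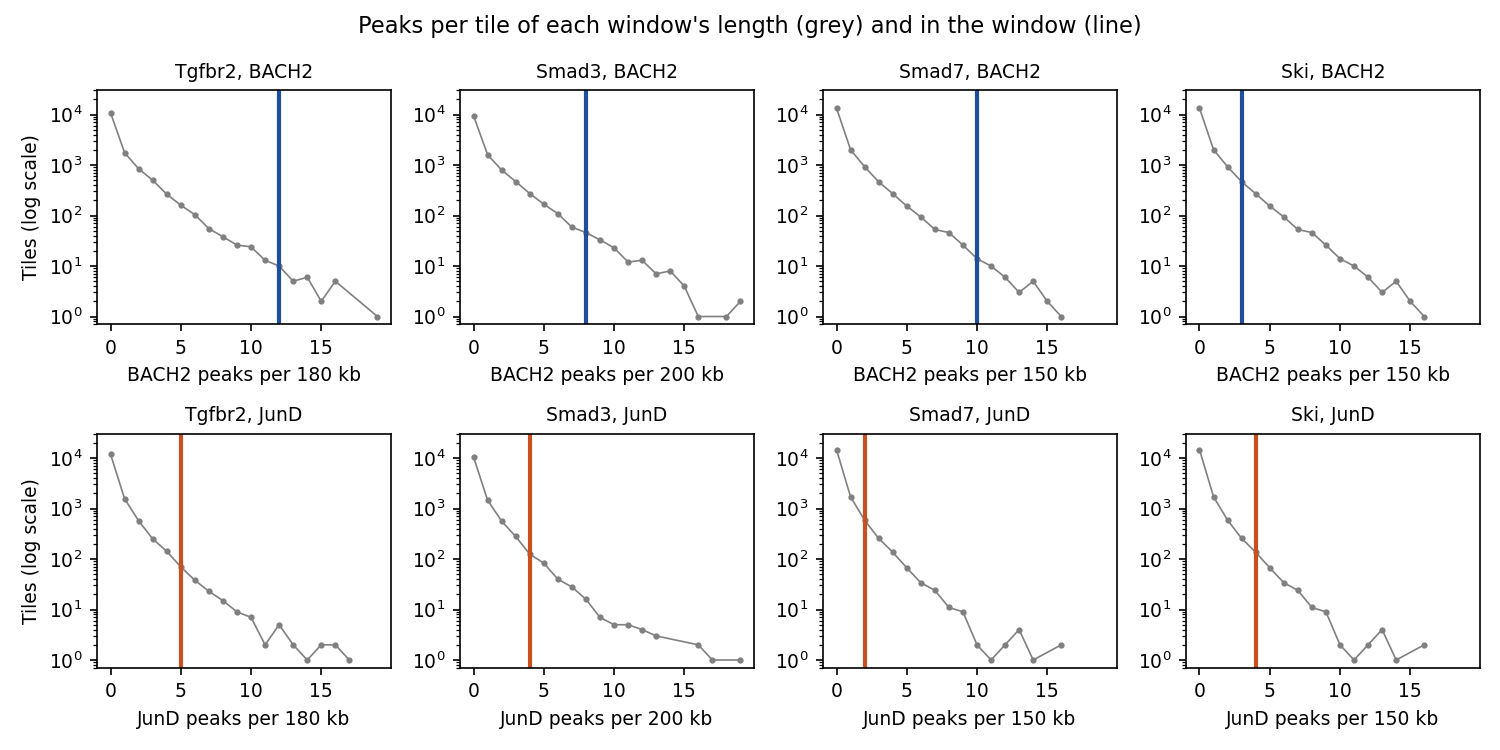
Number of tiles (vertical, log scale) by BACH2 (upper row) or JunD (lower row) peaks per tile, for tiles as long as each window, with the count of the window as a coloured line. The lines stand at 12, 8, 10 and 3 BACH2 peaks and at 5, 4, 2 and 4 JunD peaks for Tgfbr2, Smad3, Smad7 and Ski. As many peaks were held by 0.198%, 1.14%, 0.234% and 6.57% of tiles for BACH2. For JunD the shares were 1.21%, 2.43%, 6.50% and 1.68%.

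**Figure D2:**
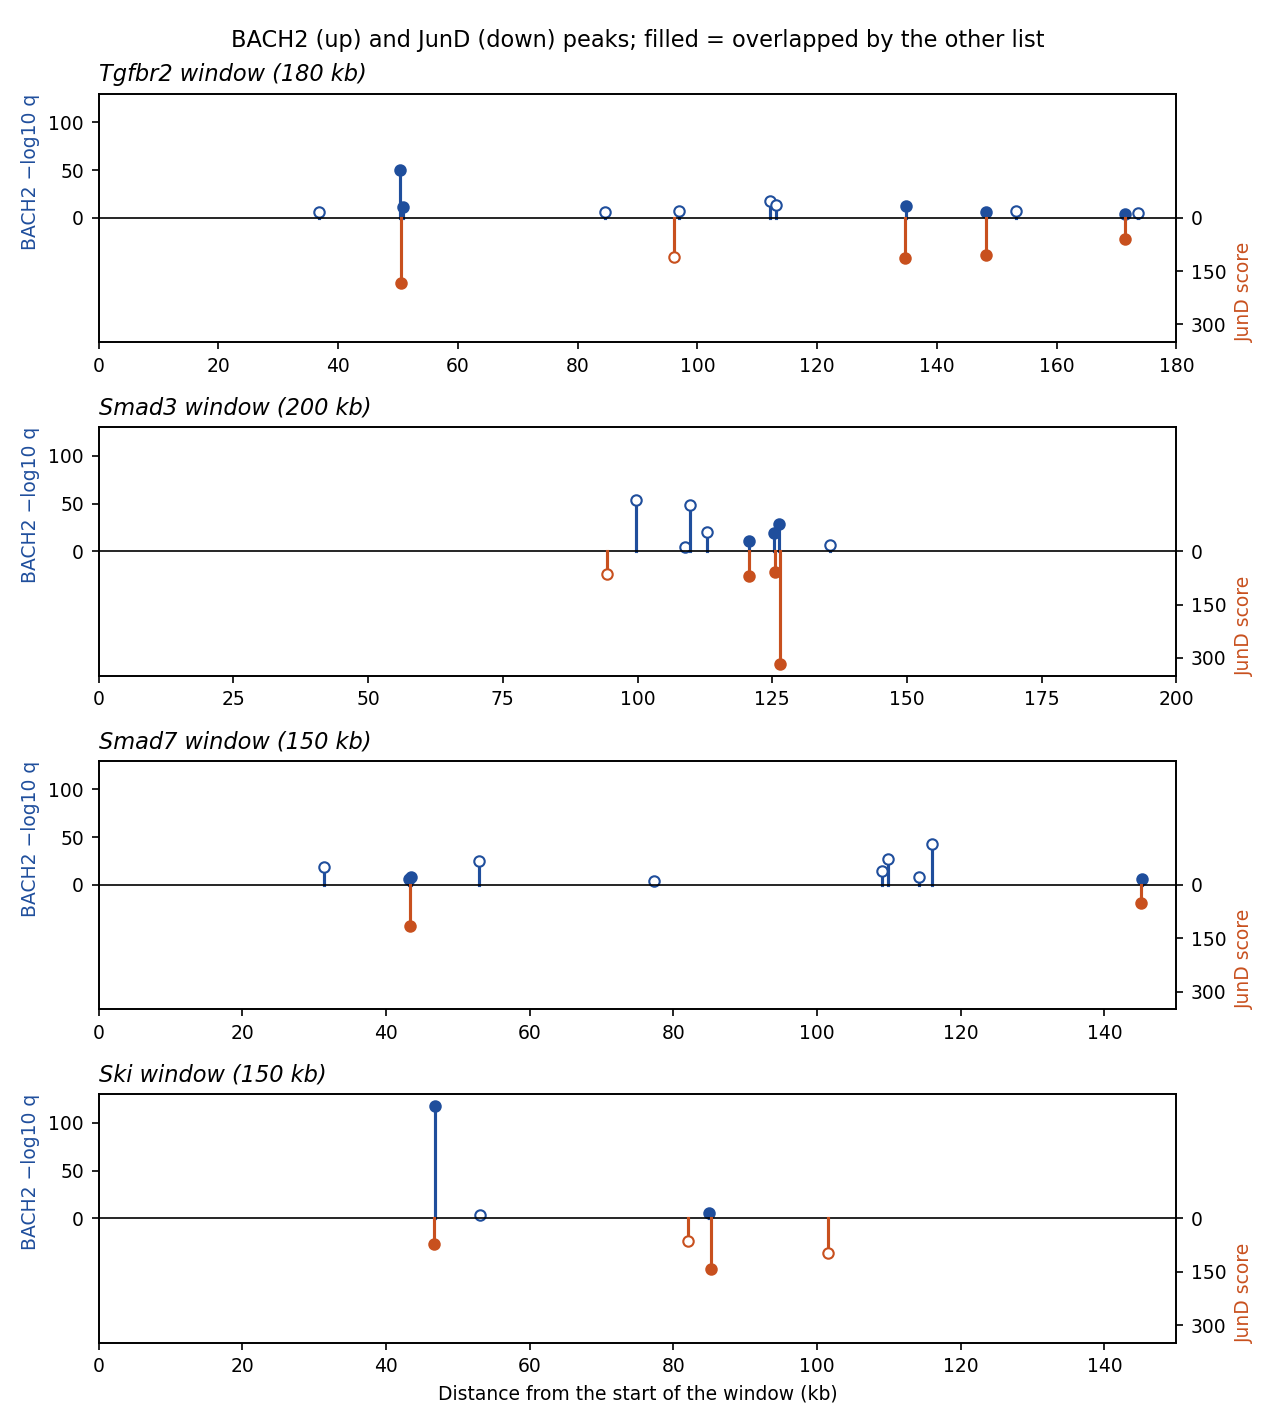
Peaks along each window (horizontal, kb from the start of the window), with BACH2 upwards by −log10 q and JunD downwards by score, and filled points for peaks overlapped by the other list. The tallest BACH2 peak, 118 on the −log10 q scale, is at Ski and the tallest JunD peak, score 318, is at Smad3.

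Tgfbr2, which encodes the ligand-binding receptor kinase, had the most peaks of both lists by count. Per 100 kb, BACH2 peaks came at 6.67 at both Tgfbr2 and Smad7, and JunD peaks at 2.78 at Tgfbr2 and 2.67 at Ski. The strongest BACH2 peak of Tgfbr2, chr9:116000203-116000583, had a fold enrichment of 11.9 over the caller's background. Its −log10 q of 50.3 placed it 904th of 9133. A second BACH2 peak, chr9:116000671-116000869 (5.19-fold, −log10 q 11.3), began after a gap of 87 bp. The strongest JunD peak of the window, chr9:116000152-116000975, covered both and had a score of 182, rank 650 of 5237. The strongest peaks of the factors at Tgfbr2 therefore lay at the same site. The JunD score has no stated scale and is used only to order JunD peaks.

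At 3 further sites at Tgfbr2 a lower-ranked JunD peak covered a single BACH2 peak. BACH2 peak chr9:116084370-116084888 (5.40-fold, −log10 q 12.9) lay in JunD peak chr9:116084161-116085160 (score 114). BACH2 peak chr9:116098121-116098318 (3.41-fold, 6.57) lay in JunD peak chr9:116097821-116098509 (score 105). The last, chr9:116121286-116121572 (3.51-fold), had a −log10 q of only 3.99 and a rank of 8545, and its JunD peak chr9:116121131-116121864 had a score of 60.3. In these pairs the BACH2 peak stood lower in its own list than the JunD peak did in its list.

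The next strongest BACH2 peaks of Tgfbr2 had no JunD peak near them. They were chr9:116062058-116062341 (6.02-fold, −log10 q 17.4) and chr9:116062971-116063316 (6.22-fold, 13.4), with 629 bp between them and the nearest JunD centre 16.1 kb away. JunD peak chr9:116045715-116046441 (score 109) overlapped no BACH2 peak. The nearest summit, that of BACH2 peak chr9:116046905-116047095 (−log10 q 7.23), lay 926 bp from its centre. The remaining BACH2 peaks, chr9:115986689-115986991, chr9:116034345-116034510, chr9:116102998-116103365 and chr9:116123565-116123737, had −log10 q values from 4.83 to 7.01. In the stronger 50% of their own list were 4 of the 12 BACH2 peaks and 4 of the 5 JunD peaks, where 50% is the share by construction. Over all 4 windows the counts were 15 of 33 and 8 of 15, and no difference between the factors was tested. Just outside the window, 2.42 kb past its end, BACH2 peak chr9:116132422-116132954 (19.1-fold, −log10 q 87.9, rank 348) met JunD peak chr9:116132369-116132917 (score 127.5). That BACH2 peak was stronger than every one inside and is not counted here.

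Smad3, which encodes the receptor-activated SMAD, had all its peaks in a single compact group. Its 8 BACH2 and 4 JunD peaks spanned 41.8 kb with no gap over 10 kb. The nearest other peak of either list was 425 kb before the group and 356 kb after it. Of the 8211 groups formed by joining peaks of both lists at most 10 kb apart, 22 (0.268%) held 12 or more peaks. Of the 8171 groups with a group on either side, 351 (4.30%) had no other peak as near as 356 kb on both sides.

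The 2 strongest BACH2 peaks at Smad3 had no overlapping JunD peak, and the third strongest had one. The strongest, chr9:63559546-63559991, was 16.9-fold enriched with a −log10 q of 53.5 (rank 828), and chr9:63569378-63569881 was 8.73-fold enriched with 49.0 (rank 940). Neither met a JunD peak, and the nearest JunD centres lay 5.46 kb and 11.0 kb away. The third strongest, chr9:63585990-63586498 (5.71-fold, −log10 q 29.0, rank 1852), lay in JunD peak chr9:63585815-63586983. That JunD peak had a score of 318 and rank 199, the highest of the 15.

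The other BACH2 peaks of the Smad3 group had a lower −log10 q. Next to the JunD peak of score 318, BACH2 peak chr9:63585296-63585655 (6.86-fold, −log10 q 19.3) overlapped JunD peak chr9:63585350-63585777, which scored 58.5. BACH2 peak chr9:63580586-63580778 (4.73-fold, 10.4) lay in JunD peak chr9:63580506-63580918 (score 70.6), its summit 18 bp from the JunD centre. By this measure it was the closest pair of the 4 genes. Between peak centres its distance was 30 bp, and the closest pair was BACH2 peak chr18:75614906-75615256 of Smad7 with its JunD peak, at 1 bp. BACH2 peak chr9:63572761-63573083 (8.53-fold, 19.8) had no JunD partner, and neither did chr9:63568719-63568962 (4.94) and chr9:63595685-63595898 (6.22). JunD peak chr9:63554059-63554591 (score 64.0) stood alone at the start of the group, 5.46 kb from the strongest BACH2 summit.

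Smad7, which encodes the inhibitory SMAD, was the window most one-sided towards BACH2, with 10 BACH2 against 2 JunD peaks. Its strongest BACH2 peaks were chr18:75585682-75586135 (11.2-fold, −log10 q 42.6, rank 1159), chr18:75579606-75580091 (9.03-fold, 26.8) and chr18:75522789-75523140 (7.31-fold, 25.3). None overlapped JunD. The first and second belonged to a run of 4 BACH2 peaks within 7.24 kb, together with chr18:75578896-75579551 (14.9) and chr18:75584088-75584358 (7.86). The nearest JunD centre to any of the 4 was 29.1 kb away.

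The 2 JunD peaks at Smad7 overlapped only BACH2 peaks of low −log10 q. JunD peak chr18:75512971-75513633 (score 115, rank 1520) covered BACH2 peaks chr18:75513123-75513306 (3.46-fold, −log10 q 6.05) and chr18:75513382-75513607 (4.50-fold, 7.89). JunD peak chr18:75614894-75615270 (score 51.7, rank 5030, near the bottom of its list) covered BACH2 peak chr18:75614906-75615256 (4.52-fold, 6.44). All 3 overlapped BACH2 peaks were in the weaker 50% of their list, whereas 5 of the 7 others were in the stronger 50%. In the whole list, 1620 of 2674 overlapped and 2946 of 6459 other BACH2 peaks were in the stronger 50%. The 3 peaks lay at only 2 JunD peaks, and the difference was not tested. The 2 unpaired peaks not yet given were chr18:75501278-75501656 (−log10 q 19.2) and chr18:75547192-75547376 (4.51). Before the window, at a distance of 5.25 kb, lay BACH2 peak chr18:75464279-75464751 (8.23-fold, −log10 q 44.2, rank 1100) without JunD, which is not counted here.

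Ski, which encodes the SMAD co-repressor, had the fewest BACH2 peaks but the strongest of the 33. That peak, chr4:154536554-154537237, was 21.1-fold enriched with a −log10 q of 118 and ranked 159 of 9133. It shared 360 bp with JunD peak chr4:154536388-154536913, which scored 71.6 and ranked 3206. At the second shared site of Ski the order was turned round. BACH2 peak chr4:154574930-154575362 (3.46-fold, −log10 q 6.05, rank 7389) lay in JunD peak chr4:154574599-154575877 (score 143, rank 1037), which at 1279 bp was the widest of the 15.

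The remaining peaks at Ski were unpaired. BACH2 peak chr4:154543090-154543309 had a fold of 3.65 and a −log10 q of 3.15, the lowest of the 33. JunD peak chr4:154591124-154591968 scored 97.1, with the nearest BACH2 summit 16.5 kb away. JunD peak chr4:154571816-154572290 scored 62.3, with a BACH2 summit at 2.96 kb. Ski was the only window of the 4 with more JunD than BACH2 peaks. The lists used here hold no peak of either factor in the 2686 kb before the first peak of Ski. Gaps at least that long occurred 184 times among 8191 between groups, and whether the lists are complete there is not known.

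Across the 4 genes, 13 of the 33 BACH2 peaks were overlapped by JunD by at least 1 bp, or 39.4% (Wilson 95% interval 24.7 to 56.3), against 29.3% of the whole list. By gene the counts were 5 of 12 at Tgfbr2, 3 of 8 at Smad3, 3 of 10 at Smad7 and 2 of 3 at Ski. Of the 15 JunD peaks, 11 were overlapped by BACH2, or 73.3% (48.0 to 89.1), against 48.8% of the whole list. These were 4 of 5 at Tgfbr2, 3 of 4 at Smad3, 2 of 2 at Smad7 and 2 of 4 at Ski. Both whole-list shares lay inside the intervals, which cover only the counting of peaks, so neither share was set apart from its list at these numbers. Within the stronger 50% of each list, 3 of 15 BACH2 and 3 of 8 JunD peaks were overlapped, or 20.0% (7.05 to 45.2) and 37.5% (13.7 to 69.4), close to the 22.3% and 38.2% of the whole lists treated alike. A JunD peak held 2 BACH2 peaks at Tgfbr2 and at Smad7, that is 2 of the 11 shared JunD peaks, against 4.30% of shared JunD peaks in the whole list.

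The peaks of the 4 genes were of ordinary strength as a group. In the strongest quintile by −log10 q were 5 of the 33 BACH2 peaks, or 15.2% (6.65 to 30.9), against 20.0% by construction. These were 2 at Smad3 and 1 each at Tgfbr2, Smad7 and Ski. Their median −log10 q was 10.4 and the list's 11.8, and the median fold was 5.19 against 5.75. By gene the median −log10 q was 19.6 at Smad3, 11.4 at Smad7, 7.12 at Tgfbr2 and 6.05 at Ski, and the ranges overlapped (4.94 to 53.5, 4.51 to 42.6, 3.99 to 50.3 and 3.15 to 118). The strongest quintile of JunD held 3 of the 15 JunD peaks, 1 each at Smad3, Tgfbr2 and Ski, or 20.0% against 20.0% by construction. The median JunD score was 97.1, against 81.6 for the list.

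**Figure D3:**
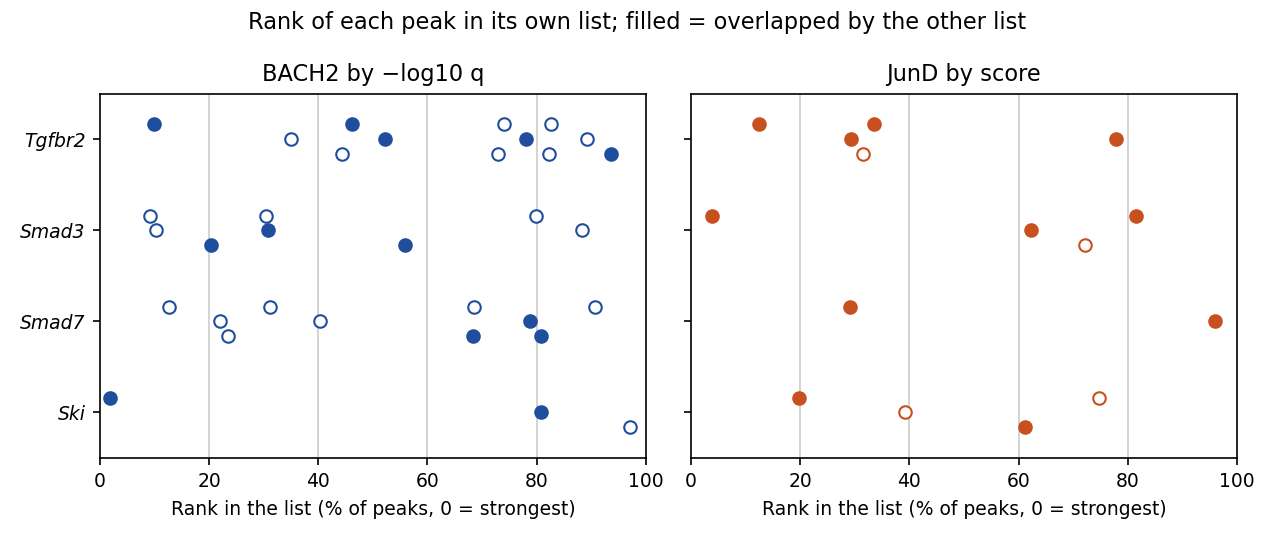
Rank of each BACH2 peak (left, by −log10 q) and JunD peak (right, by score) as a percent of its own list, 0 being the strongest, by gene, with filled points for peaks overlapped by the other list and grey lines between quintiles. BACH2 ranks run from 159 to 8867 of 9133, and at Smad7 the 3 filled BACH2 points lie in the weaker 50%.

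Overlapped and unpaired BACH2 peaks stood in a different order from gene to gene. Over the 4 genes their median −log10 q was 10.4 (n = 13) and 10.6 (n = 20), while the whole list had 15.7 and 10.9. At Tgfbr2 the medians were 11.3 (n = 5) and 7.01 (n = 7), with the overlapped peaks higher as in the list. At Ski the 2 overlapped peaks had 118 and 6.05, and the 1 unpaired peak 3.15. At Smad7 the medians were 6.44 and 19.2, the reverse, and at Smad3 19.3 and 19.8. The median fold was 4.73 and 5.59 in the windows, and 5.91 and 5.69 in the list. No test was made of these differences, which rest on few peaks per gene. Of the 13 overlapping pairs, 1 had both peaks in the strongest quintile of their lists, the pair at chr9:116000203 of Tgfbr2. The share of such pairs in the whole lists was not computed, so whether this count is usual is not known. The shared JunD peaks had a median score of 105 (n = 11) and the 4 others 80.5, the same order as in the whole list (96.9 and 72.7).

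**Figure D4:**
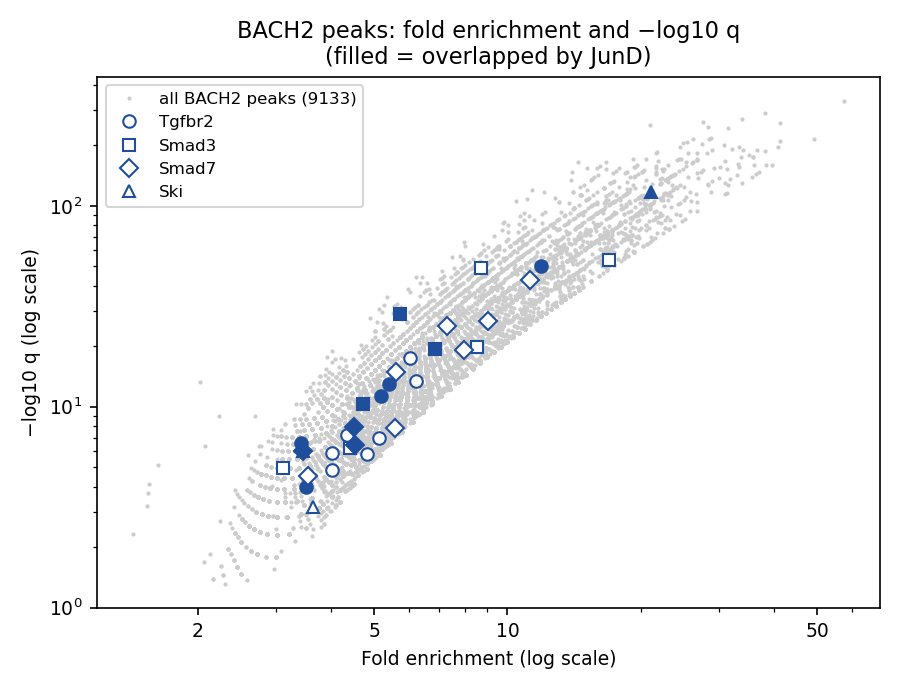
Fold enrichment (horizontal, log scale) and −log10 q (vertical, log scale) of the 33 BACH2 peaks by gene, over all 9133 BACH2 peaks in grey, with filled symbols for peaks overlapped by JunD. Symbols of the 4 genes run along the whole-list cloud, from 3.15 to 118 on the −log10 q scale.

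The BACH2 summit lay inside the JunD peak in all 13 pairs, and 11 of the BACH2 peaks were covered entirely. Both are usual, as 98.4% of all pairs had the summit inside and 78.8% had the BACH2 peak covered. The summit lay farther from the JunD centre than in most pairs of the lists. Its distance to the JunD centre had a median of 112.5 bp (range 18 to 225 bp), against 55 bp over the 2677 pairs of the whole lists. Distances of at most 50 bp were found in 1 of the 13 pairs and of at most 100 bp in 4, against 46.5% and 70.0% of all pairs. At Tgfbr2 and at Smad7 a JunD peak held 2 BACH2 peaks, so the pairs at these sites are not independent. Their summits lay 177.5 and 195.5 bp from the JunD centre at Tgfbr2, and 117 and 179 bp at Smad7. Shared JunD peaks of these windows were wider than shared JunD peaks of the whole list (median 689 against 594 bp). Relative to the distance from JunD centre to edge, the median was 0.353 in the windows and 0.187 in the lists. The JunD list gives no summits, so its peak centres stand in for them. Measured from the centre of the BACH2 peak instead, the median was 88 bp against 51 bp in the lists. By this measure 8 of 13 pairs were within 100 bp, or 61.5% (35.5 to 82.3), an interval that holds the 71.5% of all pairs, so the share was then not set apart from the list.

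Of the 29 gaps between successive BACH2 peaks within a window, 6 were at most 1 kb, 2 each at Tgfbr2, Smad3 and Smad7. Over all chromosomes, 7.02% of 9113 such gaps were as short, a background that includes long stretches without peaks. Ski had no gap this short. The shortest gaps were 54 bp and 75 bp at Smad7 and 87 bp at Tgfbr2. Joining peaks at most 1 kb apart left 27 BACH2 and 14 JunD peaks.

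The lists do not pair peaks with genes, and no mm9 annotation or sequence was used, so whether a peak lies in a promoter, exon or intron is not given. In the RefSeq order of protein-coding genes (GRCm38.p6) the neighbours are Gadl1 and Rbms3 for Tgfbr2, Aagab and Smad6 for Smad3, Dym and Ctif for Smad7, and Morn1 and Faap20 for Ski. A window may reach into these, and a peak in it is not thereby assigned to the named gene. RefSeq promoter sequences (GRCm38.p6, 250 bases before to 50 after the start of the gene) were found for Tgfbr2, Smad3 and Ski. None of the 3 held the AP-1 element TGACTCA on either strand, which 5.20% of 32851 promoters hold. The CRE-type element TGACGTCA (1.79% of promoters) had no match either. The same held for the MARE-like GCTGACTCA or GCTGAGTCA (0.822%), which contains the AP-1 element. The absence of these letters from a promoter window says nothing of the peaks above.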

How the data were processed

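Per the submitters' processing notes, Bowtie 0.12.9 was used and the build was mm9, also called NCBIM37. The peak caller's control library was not given in the sources used here, nor was its version. In addition, the labels name a pair of catalogue numbers for the JunD antibody. For each BACH2 peak the authors deposited a fold enrichment, a −log10 p, a −log10 q and a summit. For JunD they deposited a score of unstated scale, and the integer score deposited for BACH2, 10 times its −log10 q cut to a whole number, was not used separately. Depth is unknown, and the input was not used here.

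Positions were converted to count from 1. A peak belonged to a gene when at least 1 bp lay in its window, and to the other list when at least 1 bp was shared. Peaks were ranked within their own list. Tiles ran from the start of each chromosome to the last peak of either list, and peaks were placed in them by summit or centre. With 1 library per group, no difference was tested. All peaks in the windows are placed, with full values for the overlapping pairs and the 3 strongest of each list per window. The planned counts for other pathway genes, positions against annotation and motifs in peaks needed mm9 annotation or sequence and were not run. The members and lists were chosen with earlier results of these data known. Overlap counting was tested on simulated data. The work was done in Python 3.11.15 with pandas 2.3.3, scipy 1.17.1 and numpy 2.4.6.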

Additional observations from a re-analysis of the deposited data

How the results depend on the processing

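Of 43 recomputed values, 26 stayed within the interval or 1.5-fold range of the reported one and 17 moved. Keeping the stronger 50% of each list left 15 BACH2 and 8 JunD peaks, of which 20% and 37.5% were overlapped (22.3% and 38.2% of the halved whole lists). Asking for a BACH2 summit within 100 bp of a JunD centre gave 12.1% of BACH2 and 26.7% of JunD peaks (whole lists 20.5% and 35.8%, inside the intervals 4.82 to 27.3 and 10.9 to 52.0). Asking for 50% of the JunD peak also gave 26.7% (whole list 27.0%). Ranked by score divided by width, 6.67% of the JunD peaks were in the strongest quintile. From BACH2 peak centres, 61.5% of pairs were within 100 bp. Among tiles with at least 1 peak, the share with as many BACH2 peaks was 0.668% for Tgfbr2, 3.65% for Smad3, 0.877% for Smad7 and 24.6% for Ski, and for JunD 4.08%, 7.79%, 24.4% and 6.29%. These tiles are fewer by construction while the number with as many peaks is unchanged, so these shares can only rise. Keeping the stronger 50% of a list can only lower a peak count, and asking for 50% cover can only lower an overlap share. The cause of the other changes was not tested. No paired analysis was possible because there was 1 library a group. Weaker sites that the callers did not pass are missing here.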
